A study of Mus musculus with 2 samples.

Results

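Wnt signalling genes were compared between 2 pools of newborn mouse cerebral cortex, each read on 1 Affymetrix expression array. The genes were chosen by symbol. They comprise the Wnt ligands, the R-spondins, the Frizzled and LRP receptors, the secreted inhibitors of the SFRP, Dickkopf and Wif1 families, Dishevelled, beta-catenin with its destruction complex, and the TCF/LEF transcription factors. Only probe sets annotated to a single gene were used, which gave 114 probe sets for 55 genes out of 34945 probe sets for 18193 genes on the array. Of the 55 genes, 34 were measured, meaning that a probe set reached a floor of 178.6 signal units on at least 1 array. By the same criterion 11636 genes were measured in all.

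The double knockout pool is labelled MRTF-A-/-;MRTF-BF/F;GFAP-Cre and the control pool MRTFA-/-;MRTF-BFlox/Flox. Both pools are thus labelled as lacking MRTF-A, and the double knockout pool differs by a Cre recombinase transgene named for the astrocyte and radial glia gene GFAP, which excises the floxed MRTF-B segment in cells that express it and in their descendants. MRTF-A and MRTF-B are cofactors of the transcription factor SRF. Cortex of 3 animals went into each pool, labelled as taken on postnatal day 0, although the description of the double knockout sample gives postnatal day 1. With 1 array for each pool there was no replicate and no test was possible, so every difference below compares these 2 pools of RNA. Pooling leaves the variation between animals unmeasured.

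In the Wnt pathway, secreted Wnt proteins bind a Frizzled receptor together with LRP5 or LRP6. In the branch that runs through beta-catenin, the receptors act through Dishevelled to inhibit a complex of Axin, APC and GSK3 that otherwise marks beta-catenin for destruction, and the stabilised beta-catenin joins TCF/LEF factors on DNA. In the developing cortex the pathway is known for patterning the dorsal and medial wall, for progenitor division, and for growth of vessels and maturation of the blood-brain barrier.

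Both sample titles say brain. Markers of cortical neurons were read in the pools, which cannot tell cortex from a wider piece of brain. Of 13 striatum markers with a probe set, 12 reached the floor in both pools. All 13 cortical excitatory neuron markers with a probe set, among them Tbr1, Neurod6, Neurod2 and Emx1, reached the floor in both pools. Of these, 9 were higher and 4 lower in the double knockout pool, with a median log2 difference of 0.06. The widest differences in that list were those of Slc17a7, a vesicular glutamate transporter, at -0.55 log2, and of Sstr2, a somatostatin receptor, at -0.52 log2. Differences were taken as double knockout minus control, after subtracting a shift of 0.0037 log2 so that bright probe sets centred on 0. Mrtfb read 2482 in the double knockout pool and 3359 in the control pool. Mrtfa, labelled null in both pools, read 262.4 in the double knockout pool and 601.6 in the control pool, so the pools also differed in a gene for which they are labelled alike. Srf read 471.1 in the double knockout pool and 582.3 in the control pool. Whether these probe sets lie in the deleted segments was not analysed here.

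Few of the Wnt genes differed much between the pools. Of the 34 measured genes 15 were higher and 19 lower in the double knockout pool, with a median of -0.05 log2, beside 0.01 over all measured genes. The share that was higher was 44.1% for the Wnt genes and 52.9% over all measured genes. Quantile normalization and loess centring each moved the Wnt median to -0.01. A 1.5-fold higher signal was reached by no Wnt gene, and a 1.5-fold lower signal by 1, namely Tcf7l2. Over all measured genes, 0.37% were higher by this margin and 0.773% were lower by it. The typical size of a difference, its median regardless of direction, was 0.10 log2 for the Wnt genes and 0.10 log2 for all measured genes. In RNA from whole tissue, fewer cells of a type and less RNA for each cell cannot be told apart.

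**Figure D1:**
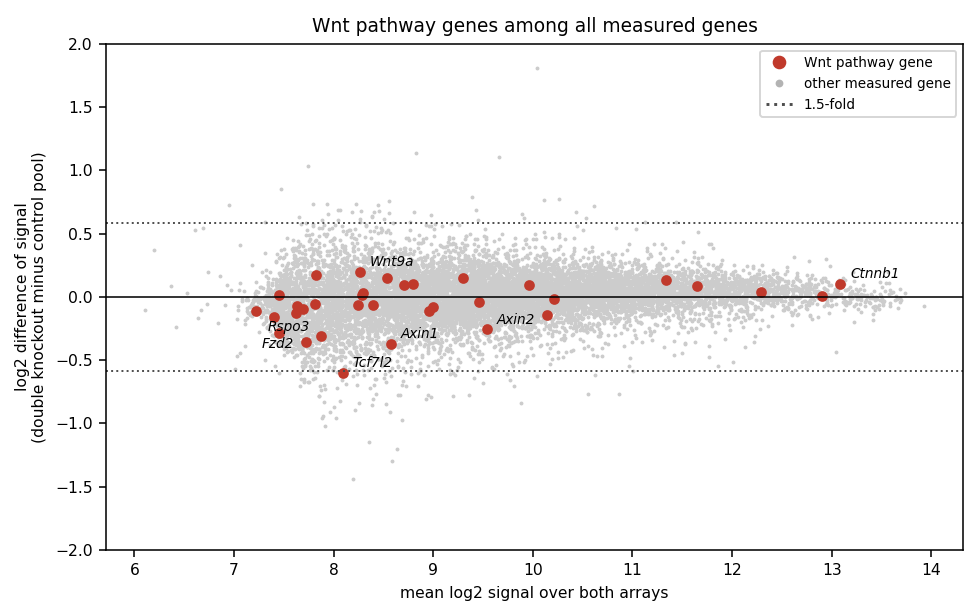
Log2 difference of signal (double knockout minus control pool, y axis) against mean log2 signal over both arrays (x axis) for 11636 measured genes in grey and the 34 Wnt pathway genes in red, with dotted lines at 1.5-fold. Tcf7l2, at -0.60, is the red point beyond the lower line, and none lies beyond the upper one.

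Over all genes the median difference was lowest in the dimmest genes. When the measured genes were split by signal into 3 equal bins, 21 Wnt genes, Tcf7l2 among them, fell in the dimmest bin. Their median was -0.07 log2 and 13 of them were lower, with 38.1% higher. All genes of that bin had a median of -0.05, with 2291 of 3879 lower and 40.9% higher. In that bin 0.722% of all genes were higher by 1.5-fold or more and 1.78% were lower by it. In the middle bin 5 of 7 Wnt genes were lower, against 1843 of 3878 among all genes there. The Wnt median was -0.08, against 0.01 for all genes of the bin, so the Wnt medians did not climb step by step with signal. Among the 6 Wnt genes in the brightest bin the median was 0.06 and 5 were higher. All genes there had a median of 0.04, and 65.3% of them were higher. The share of this trend in any single gene's difference was not tested.

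The ligands were mostly dim or under the floor. Of 19 Wnt ligand genes 7 were measured, 2 higher and 5 lower, with a median of -0.11 log2. Over all measured genes 52.9% were higher, and in the dimmest bin 40.9%. Wnt7b, a ligand made by cortical neurons and neural progenitors that acts on brain vessels, read 1079 in the double knockout pool and 1190 in the control pool on its brighter probe set. Its dimmer probe set read 221.3 in the double knockout pool and 250.9 in the control pool, and the mean over the pair was -0.16 ± 0.03 log2 (SD, 2 probe sets). The SD here and below runs over those probe sets of a gene that reach the floor in both pools, and says nothing about animals. Wnt7a, which shares that vascular role, was also lower on both of its brighter probe sets, with 297.1 and 206.4 in the double knockout pool and 310.2 and 263.8 in the control pool. Its mean was -0.21 ± 0.21 (SD, 2 probe sets), so the size of the difference hung on the probe set.

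Wnt4 followed the same direction. Its probe sets read 478.4 and 261.9 in the double knockout pool and 515.4 and 335.4 in the control pool, with a mean of -0.24 ± 0.18 (SD, 2 probe sets). Wnt4, Wnt7a and Wnt7b, the ligands with 2 or more probe sets that reached the floor in both pools, were lower on all 6. Wnt5a and Wnt9a, with 1 such probe set each, were higher. Over all measured probe sets naming 1 gene 50.6% were lower, and over those of the Wnt genes 58.6%. On the higher side, Wnt9a read 329.7 in the double knockout pool and 286.3 in the control pool, a difference of 0.20 log2, the largest positive one when each Wnt gene is read on its brightest probe set. Wnt5a, a ligand of the non-canonical branches, read 240.5 in the double knockout pool and 213.0 in the control pool on its brightest probe set, while a second probe set read 151.0 in the double knockout pool and 179.4 in the control pool, at the edge of the floor.

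Wnt6 and Wnt8b crossed the floor in the control pool only. Wnt6 read 143.5 in the double knockout pool and 199.3 in the control pool, at least 1.12-fold lower. Wnt8b, a marker of the medial cortical wall in the embryo, read 116.1 in the double knockout pool and 193.3 in the control pool, at least 1.08-fold lower. The bounds take the double knockout signal at the floor, since signals beneath it have no reliable order. The ligands Wnt1, Wnt2, Wnt2b, Wnt3, Wnt3a, Wnt5b, Wnt8a, Wnt9b, Wnt10a, Wnt10b, Wnt11 and Wnt16 stayed under the floor in both pools.

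R-spondins, secreted proteins that strengthen Wnt signals by keeping Frizzled receptors on the cell surface, went both ways. Rspo3 read 211.5 in the double knockout pool and 262.0 in the control pool, a difference of -0.31 log2. Rspo1 read 141.4 in the double knockout pool and 217.8 in the control pool, at least 1.22-fold lower. Rspo2 read 663.5 in the double knockout pool and 596.2 in the control pool, a difference of 0.15 log2. The choroid plexus and cortical hem list, tissue at the medial edge of the cortex where several Wnt and R-spondin genes are made, had 2 measured markers higher and 5 lower with a median of -0.07 log2. Its summed signal was 14262 in the double knockout pool and 14077 in the control pool. Most of that was Ttr. The other 6 measured markers, a split made after the values were seen, summed to 1522 in the double knockout pool and 1672 in the control pool. That smaller sum counts Cldn2 at 125.5 in the double knockout pool, under the floor, and at 203.4 in the control pool. Lmx1a, Otx2, Kl, Aqp1 and Trp73 were under the floor in both pools, and the part of this tissue in the R-spondin values was not tested.

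**Figure D2:**
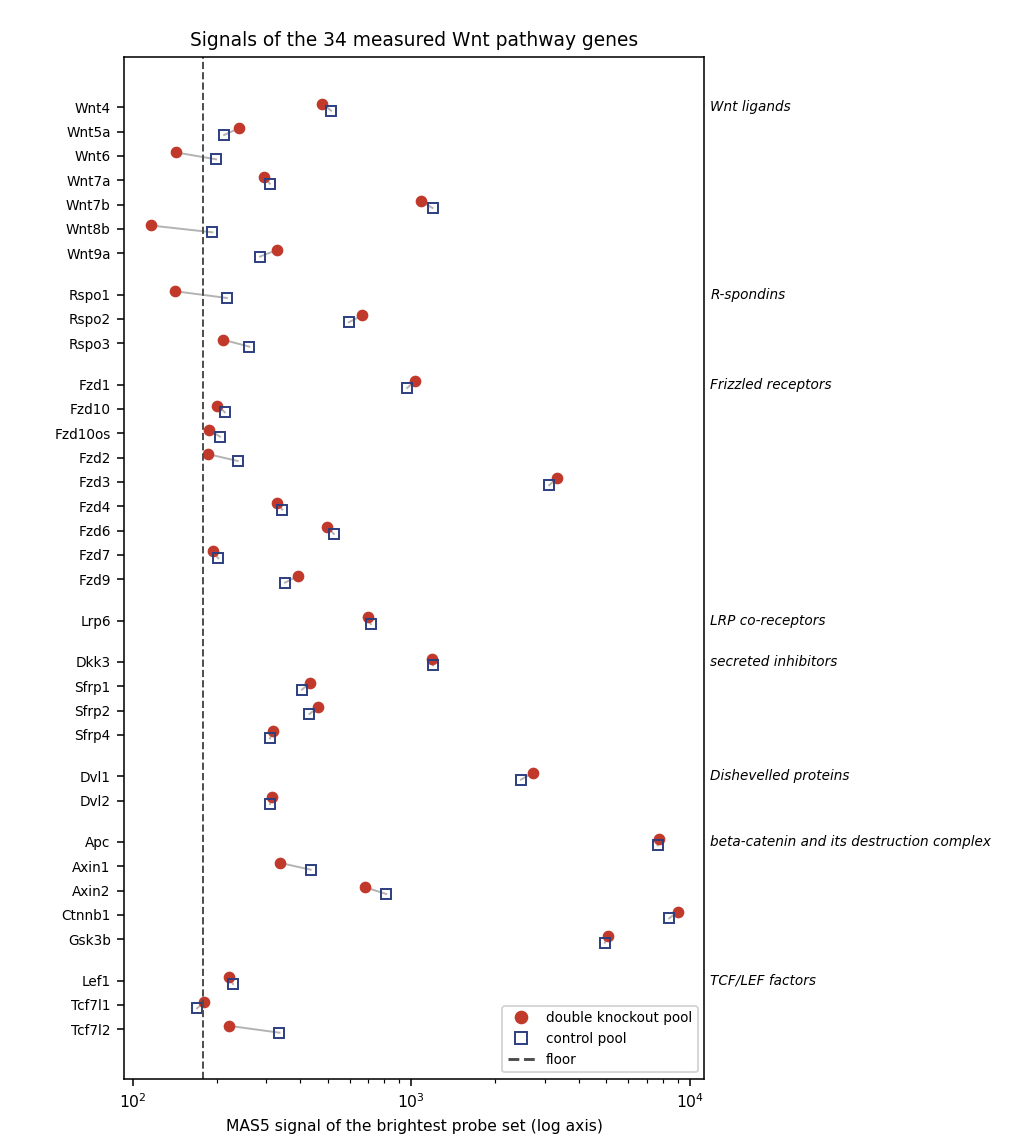
MAS5 signal of the brightest probe set (x axis, log scale) of each of the 34 measured Wnt pathway genes, arranged by role, with a red circle for the double knockout pool above a blue square for the control pool and a dashed line at the floor of 178.6. Most pairs nearly coincide, and the widest gap between signals above the floor is that of Tcf7l2, at 222.1 in the double knockout pool and 336.2 in the control pool.

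Frizzled receptors, the proteins that bind Wnt, were close to equal in the pools. The rule matched 11 symbols, 10 of them Frizzled receptors and 1, Fzd10os, an RNA gene named as the opposite strand of Fzd10. Of these 9 were measured in both pools, with 3 higher, 6 lower and a median of -0.07 log2. Fzd3, which guides the growth of axon tracts, read 3314 in the double knockout pool and 3117 in the control pool. Fzd1 read 1032 in the double knockout pool and 964.6 in the control pool. Fzd9 read 392.4 in the double knockout pool and 352.1 in the control pool, a difference of 0.15 log2.

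The lower Frizzled genes differed by less than 0.15 log2, apart from Fzd2. Fzd4, the receptor for Norrin on vessels, read 329.2 in the double knockout pool and 344.0 in the control pool, and Fzd6 read 498.7 in the double knockout pool and 527.0 in the control pool. Fzd7, Fzd10 and Fzd10os read 193.5, 200.6 and 188.5 in the double knockout pool and 202.9, 214.3 and 205.7 in the control pool, all near the floor. Fzd2 read 186.6 in the double knockout pool and 238.1 in the control pool on its brightest probe set, but 201.1 in the double knockout pool and 178.9 in the control pool on another. The mean for Fzd2 was -0.10 ± 0.37 log2 (SD, 2 probe sets), so its probe sets contradicted each other. Fzd5 and Fzd8 were under the floor in both pools. The co-receptor Lrp6 read 696.5 in the double knockout pool and 714.5 in the control pool, and Lrp5 was under the floor.

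Among secreted inhibitors the brightest probe sets differed by no more than 0.10 log2, but Sfrp1 gave opposing readings. SFRP proteins resemble the Wnt-binding part of Frizzled and hold Wnt away from its receptors, and SFRP1 is made by cortical radial glia. On its brightest probe set by mean log2 signal, Sfrp1 read 433.1 in the double knockout pool and 404.8 in the control pool, and on a dimmer one 330.7 in the double knockout pool and 314.5 in the control pool. On 2 others it read 344.7 and 273.8 in the double knockout pool against 502.4 and 472.0 in the control pool. These gave -0.55 and -0.79 log2, the second of them 1.73-fold lower and the largest difference of any Wnt probe set that reached the floor in both pools. The probe set at -0.55 was nearly as bright as the brightest by mean log2 signal. The count of Sfrp1 among the higher genes rests on which of these is taken. The 4 together had a mean of -0.29 ± 0.44 (SD), the widest spread of any Wnt gene, so the array gives no single direction for Sfrp1. Radial glia markers, measured for 15 of 15 genes, had 6 higher and 9 lower with a median of -0.10 log2, and a summed signal of 29208 in the double knockout pool and 30294 in the control pool. Their part in the Sfrp1 values was not tested.

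The other inhibitors differed little between the pools. Sfrp2 read 462.6 in the double knockout pool and 430.7 in the control pool, and Sfrp4 read 319.1 in the double knockout pool and 310.9 in the control pool. Dkk3, a divergent Dickkopf protein, read 1183 and 868.2 on its probe sets in the double knockout pool and 1195 and 1007 in the control pool, a mean of -0.12 ± 0.14 (SD, 2 probe sets). The Dickkopf proteins that block LRP5 and LRP6, Dkk1, Dkk2 and Dkk4, were under the floor in both pools, as were Sfrp5 and Wif1.

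Inside the cell, beta-catenin was the gene whose probe sets all pointed upward. Ctnnb1 read 9041, 4315 and 1513 in the double knockout pool and 8394, 3569 and 1339 in the control pool, with a mean of 0.18 ± 0.08 log2 (SD, 3 probe sets). All 3 carry a suffix for probe sets that can read several transcripts of a gene, so none was left when such probe sets were removed. Of the 11 Wnt genes for which 2 or more probe sets reached the floor in both pools, Ctnnb1 was the 1 with all of them higher. Wnt4, Wnt7a, Wnt7b, Dkk3 and Tcf7l2 were the 5 with all of them lower, and 5 had probe sets on both sides. In Apc, counted among those 5, the only negative value was -6.6e-06 log2. Such a count of directions was not made over all genes. In the brightest bin, which holds Ctnnb1, 65.3% of all genes were higher on their brightest probe set.

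**Figure D3:**
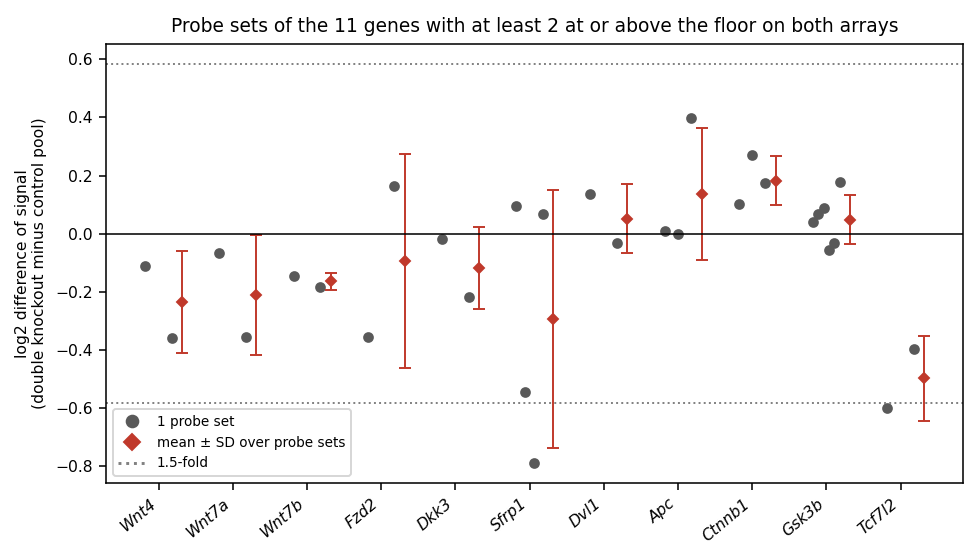
Log2 difference of signal (double knockout minus control pool, y axis) of each probe set that reached the floor in both pools, for the 11 Wnt pathway genes having 2 or more such probe sets (x axis), with the mean ± SD over probe sets as red diamonds and dotted lines at 1.5-fold. The 4 Sfrp1 probe sets run from -0.79 to 0.09, while the 3 of Ctnnb1 lie above 0 and the 2 of Tcf7l2 below.

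In the destruction complex both Axin genes were lower on their brightest probe sets. Axin1, the scaffold, read 337.1 in the double knockout pool and 435.1 in the control pool, a difference of -0.37 log2. A second Axin1 probe set, near the floor, read 174.7 in the double knockout pool and 183.2 in the control pool. Axin2, the scaffold that beta-catenin itself induces and which serves as a standard readout of the pathway, read 680.8 in the double knockout pool and 811.9 in the control pool, a difference of -0.26 log2 on its only probe set above the floor. The kinase Gsk3b had 6 probe sets with a mean of 0.05 ± 0.08 log2 (SD). Apc, the large tumour suppressor protein of the complex, read 7692.5 and 3765.6 in the double knockout pool and 7630.5 and 3755.9 in the control pool on its bright probe sets. A dimmer Apc probe set read 803.7 in the double knockout pool and 608.5 in the control pool, a difference of 0.40 log2.

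Dishevelled, which relays the receptor signal, was nearly equal in the pools. Dvl1 read 2718.5 and 1426.7 on its probe sets in the double knockout pool and 2469.5 and 1454.3 in the control pool, with a mean of 0.05 ± 0.12 log2 (SD, 2 probe sets). Dvl2 read 315.4 in the double knockout pool and 310.9 in the control pool. Dvl3 was under the floor in both.

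Of the TCF/LEF factors, which carry beta-catenin to DNA, Tcf7l2 stood at the edge of the Wnt genes. TCF7L2 is known for its abundance in thalamic neurons and in oligodendrocytes on their way to making myelin. It read 222.1 in the double knockout pool and 336.2 in the control pool, 1.52-fold lower, and 191.0 in the double knockout pool against 250.8 in the control pool on a second probe set. The mean was -0.50 ± 0.15 log2 (SD, 2 probe sets). Its 2 remaining probe sets were under the floor, and the second probe set was near it. Tcf7l2 lies in the dimmest bin, where 1.78% of all genes were at least 1.5-fold lower. The difference no longer reached 1.5-fold with quantile normalization, at -0.53 log2, with loess centring, at -0.54, or with the mean over probe sets. With a pseudocount equal to the floor it was -0.36. Among genes that reached the floor in both pools, each read on its brightest probe set, those next to the threshold were Axin1, 1.29-fold lower, and Fzd2, 1.28-fold lower. Rspo1, Wnt6 and Wnt8b have lower bounds only and take no place in that order.

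Markers of cells and regions known for Tcf7l2, and of the neighbouring striatum, were read in the same pools. The oligodendrocyte list had 14 measured markers, 2 higher and 12 lower, its median was -0.29 log2, and the summed signal was 22191 in the double knockout pool and 26348 in the control pool. Mobp, a myelin protein, read 294.2 in the double knockout pool and 575.2 in the control pool. Mag, a myelin glycoprotein, read 361.6 in the double knockout pool and 589.5 in the control pool. Mbp, the brightest marker of the list, read 7286 in the double knockout pool and 9809 in the control pool. On their brightest probe sets Pdgfra and Olig1 were the 2 higher markers, at 0.15 and 0.04 log2. Olig2 was at -0.05 and Nkx2-2 at -0.09. Mog was under the floor in both pools. Thalamus and habenula markers had 3 higher and 5 lower of 8 measured, with a median of -0.04 and a summed signal of 12608 in the double knockout pool and 13353 in the control pool, with Gbx2, Lhx9, Prox1, Tnnt1, Pou4f1, Synpo2 and Vav3 under the floor. Striatum markers had 1 higher and 11 lower with a median of -0.26, summing to 14233 in the double knockout pool and 15626 in the control pool, with Ebf1 under the floor. The part of these cells and tissues in the Tcf7l2 value was not tested.

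Lef1, which is needed for the granule neurons of the dentate gyrus to form, read 220.9 in the double knockout pool and 229.1 in the control pool, and its other probe set was under the floor. Hippocampus markers had 4 higher and 5 lower with a median of -0.03 log2. That list counts Lef1 and Fzd9 among its 9 measured genes. Tcf7l1, which mostly acts as a repressor, read 181.0 in the double knockout pool and 170.3 in the control pool on its brighter probe set. The other read 196.1 in the double knockout pool and 132.8 in the control pool, at least 1.09-fold higher. Both probe sets reached the floor in the double knockout pool only. Tcf7 had no probe set naming it alone, so its signal was not analysed here.

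Promoter sequences of the Wnt genes were searched for words of the kind read by TCF/LEF or SRF. RefSeq promoter windows on mouse build GRCm38.p6 were found for 36 of the 55 genes, 20 of them measured, and the 250 bases before each annotated start were searched on both strands. The TCF/LEF search took 4 words, which were CTTTGAT together with its variant CTTTGAA as well as the word CTTTGTT together with its variant CTTTGTA, and the SRF search the CArG box. With the windows of Tcf7 added, 6 of 46 windows held a TCF/LEF word (13.0%), against 14.8% of all 32851 promoter windows. A CArG box was in 2 of the 46 windows (4.35%), against 1.47% of all windows, in Lef1 and in Tcf7. Tcf7 is not among the 55 genes, so of their windows only that of Lef1 held a CArG box. By their letters, a TCF/LEF word and a CArG box cannot share bases.

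The measured genes with a match were Fzd7, Lef1 and Tcf7l2, and their windows are shown because they place the search words beside the genes whose signals are given above. Capitals mark the match, and all 4 windows read 5′ to 3′ on the plus strand. The Fzd7 window is chr1:59481897-59482146, directly before the gene, with a word on the minus strand 130 bases before the start. The first Lef1 window, chr3:131112541-131112790, precedes a start 2494 bases inside the annotated gene and holds a CArG box that begins 100 bases before it. The second Lef1 window, chr3:131156044-131156293, precedes a start 45997 bases inside the gene and holds a minus-strand TCF/LEF word. The Tcf7l2 window, chr19:55895071-55895320, precedes a start 153524 bases inside the gene, with a plus-strand word 14 bases before it. Whether the windows inside these genes are exonic or intronic was not analysed here.
Fzd7: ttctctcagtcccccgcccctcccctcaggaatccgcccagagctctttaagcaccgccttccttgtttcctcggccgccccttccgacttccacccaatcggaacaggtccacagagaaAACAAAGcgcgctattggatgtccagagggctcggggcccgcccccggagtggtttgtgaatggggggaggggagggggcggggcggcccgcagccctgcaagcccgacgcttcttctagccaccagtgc
Lef1, first window: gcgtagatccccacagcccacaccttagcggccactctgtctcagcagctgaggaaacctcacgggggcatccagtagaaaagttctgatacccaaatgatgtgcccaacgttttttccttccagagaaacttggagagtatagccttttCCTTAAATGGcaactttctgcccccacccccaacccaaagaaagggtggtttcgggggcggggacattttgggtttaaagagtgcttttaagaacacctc
Lef1, second window: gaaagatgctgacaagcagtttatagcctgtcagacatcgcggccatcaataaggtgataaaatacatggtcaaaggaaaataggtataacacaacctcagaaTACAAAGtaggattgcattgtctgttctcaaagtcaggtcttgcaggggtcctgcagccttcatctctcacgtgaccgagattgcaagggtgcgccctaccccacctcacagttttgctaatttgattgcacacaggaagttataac
Tcf7l2: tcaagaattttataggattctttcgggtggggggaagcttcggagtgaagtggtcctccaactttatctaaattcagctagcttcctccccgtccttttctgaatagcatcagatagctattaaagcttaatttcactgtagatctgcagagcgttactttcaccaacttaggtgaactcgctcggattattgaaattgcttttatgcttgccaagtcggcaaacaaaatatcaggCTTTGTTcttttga

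A match of letters is a description and does not show that a factor binds there. Of these genes Fzd7 differed by -0.07 log2, Lef1 by -0.06 and Tcf7l2 by -0.60, and the sign turned for Fzd7 and Lef1 with quantile normalization and for Lef1 with loess centring. The windows at the 5′ ends of Lef1 and Tcf7l2 held no match, nor did the Axin2 window, which precedes a start 2521 bases inside that gene.

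The rest of the pathway was counted from lists grouped by role. Over 7 lists of other pathway genes, leaving out the Wnt genes above, 98 of 114 genes with a probe set were measured. Of these 59 (60.2%) were higher and 39 lower in the double knockout pool, with a median of 0.04 log2. A 1.5-fold difference was passed by 0 of them in either direction. Over all measured genes 52.9% were higher, 0.37% were higher by at least 1.5-fold, and 0.773% were that much lower. In the brightest bin 65.3% of all genes were higher, with a median of 0.04. Genes induced by beta-catenin, 4 of whose 24 on the array are Wnt genes described above, had 19 measured. They went 9 higher and 10 lower with a median of -0.03, a value whose sign turned to 0.03 with quantile normalization and 0.0058 with loess centring. Emx2, a cortical patterning factor, read 310.8 in the double knockout pool and 424.7 in the control pool. Apcdd1, a membrane Wnt inhibitor that beta-catenin induces in vessels, read 2368 in the double knockout pool and 1929 in the control pool, with a mean of 0.12 ± 0.20 log2 (SD, 5 probe sets).

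The destruction complex and beta-catenin turnover list had 12 higher and 6 lower of 18 measured, with a median of 0.09 log2. In it Csnk1e, a casein kinase that phosphorylates pathway proteins, read 2824.2 in the double knockout pool and 2276.5 in the control pool, with a mean of 0.32 ± 0.01 (SD, 2 probe sets). Nuclear cofactors of beta-catenin had 14 higher and 7 lower of 21, with a median of 0.06, and Pygo1, which links beta-catenin to chromatin, read 189.8 in the double knockout pool and 255.0 in the control pool. Planar cell polarity and other non-canonical genes had 14 higher and 8 lower of 22, with a median of 0.03. The widest difference in that list was that of Nfatc4, at 218.1 in the double knockout pool and 306.4 in the control pool. Scrib, a polarity scaffold, read 339.7 in the double knockout pool and 244.7 in the control pool.

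In 3 of the lists most genes act outside the cell or at its surface. Wnt secretion and processing genes had 5 higher and 6 lower of 11, with a median of -0.00063 log2. The widest difference there was that of Trabd2b, at 355.8 in the double knockout pool and 475.4 in the control pool. Adgra2, the vascular coreceptor for WNT7 also called GPR124, read 251.0 in the double knockout pool and 191.8 in the control pool. Other receptors and receptor turnover genes had 5 higher and 3 lower of 8, with a median of 0.08, and Ryk, a Wnt-binding receptor of growing axons, had a mean of 0.20 ± 0.07 (SD, 2 probe sets). Other secreted or membrane antagonists had 4 higher and 4 lower of 8, with a median of 0.05. Draxin, a secreted guidance protein that also inhibits Wnt, read 362.1 in the double knockout pool and 257.2 in the control pool.

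**Figure D4:**
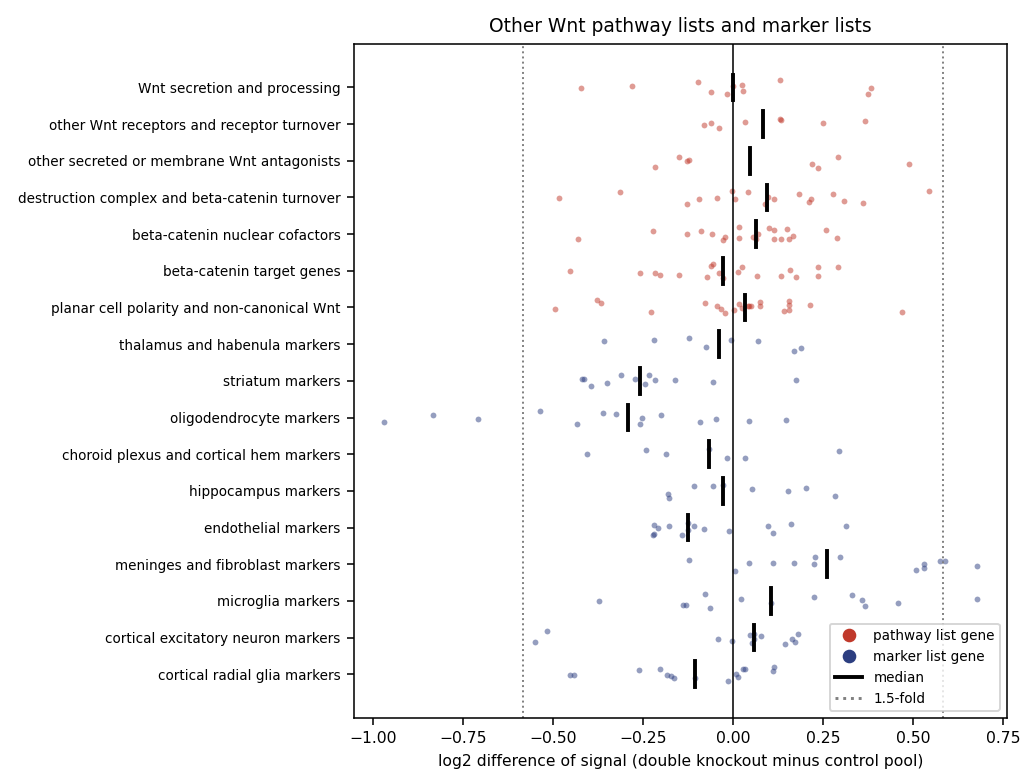
Log2 difference of signal (double knockout minus control pool, x axis) of each measured gene in 7 pathway lists (red) and 10 marker lists (blue), with the list median as a black bar and dotted lines at 1.5-fold. Pathway medians lie between -0.03 and 0.09, while marker medians run from -0.29 for oligodendrocytes to 0.26 for meninges and fibroblasts.

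Vessel, meningeal and microglial markers, whose cells also carry Wnt pathway genes, were read in the same way. Endothelial markers had 4 higher and 11 lower of 15 with a median of -0.12 log2, summing to 9843 in the double knockout pool and 10318 in the control pool, with Tie1 under the floor. Meninges and fibroblast markers had 13 higher and 1 lower of 14 with a median of 0.26, summing to 19889 in the double knockout pool and 15831 in the control pool, with Foxd1 and Crabp2 under the floor. Microglia markers had 8 higher and 5 lower of 13 with a median of 0.11, summing to 10696 in the double knockout pool and 9935 in the control pool, with Itgam and Trem2 under the floor. The part of these cells in the Wnt values was not tested.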

How the data were processed

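Per the labels' protocols, biotinylated cRNA was made from 6 ug of Trizol-extracted total RNA of each pool. The authors deposited 1 linear intensity signal for each probe set. The submitters' processing notes name MAS5 for this step, with version and scaling target not given in the sources used here. Depth has no meaning for arrays, and having 1 array per pool limits the precision.

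Signals were centred by 0.0037 log2 on the median difference of bright probe sets, and those under 178.6, the 50th percentile of non-control signals, were set to that floor before taking log2. Signals are printed as deposited. Sums over markers add deposited signals, including those of Cldn2, Opalin and Slc6a13, each under the floor in 1 pool. A gene took its measured probe set of highest mean log2 signal, and its call threshold was 1.5-fold. Between probe sets of a gene the pooled SD was 0.18 log2 over 4858 genes and 0.23 over 11 Wnt genes. Probe sets were named from GEO's platform annotation, with Entrez identifiers matched for 99.4% to RefSeq (GRCm38.p6); 932 probe sets naming several genes and 9160 naming none were left out. Columns of no listed sample numbered 0.

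Members and the 18 lists were chosen with earlier results of these data known. All measured members were named. From each list, genes were named among the 4 largest differences that reached the floor in both pools. Exceptions are listed markers without values, Cldn2, and the oligodendrocyte markers Mbp, Pdgfra, Olig1, Olig2 and Nkx2-2. The 9 alternatives changed centring, floor, pseudocount, filter or probe set choice, or left out probe sets with a suffix (_x_at, _s_at or _a_at). The calculation was tested on simulated data in which only bright genes were given large differences. Dim genes and small differences were not covered by that test. Python 3.11.15, numpy 2.4.6, pandas 2.3.3, statsmodels 0.14.6 and matplotlib 3.10.9 were used.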

Additional observations from a re-analysis of the deposited data

How the results depend on the processing

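The median over the measured Wnt genes was -0.05 log2. It was -0.0095 with quantile normalization, -0.0139 with loess centring and 0.0401 with a 75th percentile floor, which left 11 Wnt genes measured. The count of Wnt genes at least 1.5-fold lower, 1 as reported, was 0 under quantile normalization, under loess centring, with a 75th percentile floor, with the pseudocount equal to the floor and with the mean over probe sets. It was 6 of 47 with a 25th percentile floor and 8 of 55 with no floor and no filter, where 4 were at least 1.5-fold higher. Under those settings 4.34% and 10.3% of all genes were at least 1.5-fold lower, and without floor and filter 4.08% were that much higher. After quantile normalization 0.576% of all genes were at least 1.5-fold higher and 0.602% lower, against 0.516% and 0.62% with loess centring. The median of the beta-catenin target genes was 0.0337 with quantile normalization, 0.0058 with loess centring and 0.0402 with a 75th percentile floor. The causes were not tested. Of the 34 measured Wnt genes 29 kept their sign under each of the 9 alternatives that gave them a value. The exceptions were Apc, Lef1 and Fzd7 under quantile normalization, Apc and Lef1 also under loess centring, Dvl1 without suffixed probe sets, and Sfrp1 with the mean over probe sets, at -0.29.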
